A study of Caenorhabditis elegans with 12 samples.

Results

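The dhs and stdh genes of Caenorhabditis elegans encode enzymes of the short-chain dehydrogenase/reductase family. They were chosen here by name, as protein-coding genes whose WormBase symbol starts with dhs- or stdh-, leaving out 1 dhs gene that is not analysed here, with a total of at least 20 counts over all libraries. This gave 32 genes, 29 dhs and 3 stdh, out of 46748 genes in the count table. The member nearest above the minimum was stdh-4 with 43 counts, and stdh-3, with 3 counts, fell below it. Of the 32, 31 passed the filter on low counts and were tested, and stdh-4 did not pass. RNA was measured by sequencing of whole N2 hermaphrodites, the wild-type laboratory strain, in 12 libraries. The labels give the age of the worms as 1 day or 2 days. Oocyte and eggshell genes summed to 6621 CPM or more in every library, as in egg-producing adults. The days are therefore not read here as days from hatching. The perturbation was L4440, the empty vector of RNAi by feeding, or bcat-1 RNAi, which targets the gene for the transaminase of the branched-chain amino acids leucine, valine and isoleucine. Each of the 4 groups (L4440 and bcat-1 RNAi at each age) had 3 libraries, and the 2 kinds of bacteria are called foods here. The labels do not say whether these are separate cultures, so p-values measure only the spread between libraries, which may be technical.

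Short-chain dehydrogenases/reductases bind NAD(H) or NADP(H) in a Rossmann fold and move hydride to or from alcohol and carbonyl groups of steroids, retinoids, fatty acyl chains, sugars and foreign compounds. Worms cannot make sterols and take up cholesterol, from which they make dafachronic acids, the ligands of the nuclear receptor DAF-12. Other members of the family sit on intestinal lipid droplets or act in fatty acid elongation. The isoleucine pathway itself contains an enzyme of this fold, the hydroxyacyl-CoA dehydrogenase for which ard-1 is the worm gene.

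Library totals ran from 29291731 to 43855795 counts. Ribosomal RNA genes took 41.5% of counts (95% Wilson interval 41.446% to 41.482%, counting error only) in replicate 3 of bcat-1 RNAi at day 2, 6.74% in L4440 day 2 replicate 3, and at most 2.49% in the other 10. The transcript of the target, bcat-1, ran from 156 to 179 CPM in the L4440 libraries of day 1 and from 18.01 to 27.1 CPM in the RNAi libraries of that age. The L4440 libraries of day 2 ran from 116 to 157 CPM, while replicates 1 and 2 of bcat-1 RNAi had 13.9 and 17.3 CPM. Replicate 3 of that group reached 329 CPM, so the library labelled bcat-1 day 2 replicate 3 goes against its label. CPM is the usual depth-scaled count, here with library sizes scaled by the trimmed mean of M-values. Calls of members that rest on the day 2 RNAi group are given with and without that library, and those of other genes as counts. It held the highest level of 7 members and the lowest of 8, more than any other library in each case. Of the lists of cell type markers, intestine genes summed to 1608 to 2049 CPM, germline genes to 4993 to 7801 CPM, oocyte and eggshell genes to 6621 to 8328 CPM, muscle genes to 953 to 1812 CPM and neuron genes to 219 to 250 CPM. Embryo genes summed to 185 to 231 CPM, epidermis genes to 244 to 425 CPM, moulting genes to 69.3 to 309 CPM and the 8 sperm genes to 4.07 to 7.598 CPM, with 2 to 5 of the sperm genes at 0 in each library. In whole worms, fewer cells of a type and less RNA per cell cannot be told apart.

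The family spread over more than 3 orders of magnitude in level, and a few members held most of its transcripts. Set on a common scale of CPM per kilobase of exon, dhs-22 was the most abundant member with a mean of 129 over the 12 libraries. It was followed by dhs-13 (68.5), dhs-6 (64.2), dhs-1 (59.9) and dhs-3 (56.5). These 5 genes made up 57.2% of the summed level of the 32 members on this scale. At the other end, stdh-4 had a mean of 0.0926 per kilobase, and dhs-15, dhs-16, dhs-8, stdh-2, dhs-23 and dhs-26 lay between 0.398 and 0.994. The median of the 31 tested members was 11.9 per kilobase, against 8.23 for the 13794 protein-coding genes past the same filter.

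The most abundant member, dhs-22 (WBGene00000985, chromosome V, 14420071 to 14421440 in WBcel235), differed little between groups. At day 1 its CPM were 143, 145 and 144 on L4440 and 160, 140 and 141 on bcat-1 RNAi (replicates 1, 2 and 3). Day 2 gave 129, 154 and 145 on L4440 and 134, 159 and 172 on bcat-1 RNAi. The foods overlapped at each age. In dhs-13 (WBGene00000976, chromosome V, 1765311 to 1771734), CPM were 92.6, 90.1 and 92.3 on L4440 and 102, 102 and 90.1 on bcat-1 RNAi at day 1, and 80.2, 87.9 and 89.0 against 80.5, 91.9 and 76.9 at day 2. Here too the foods overlapped at both ages. In dhs-6 (WBGene00000970, chromosome II, 5617128 to 5619319) they were 104, 102 and 105 against 90.3, 93.0 and 99.7 at day 1, and 88.4, 87.1 and 95.4 against 87.6, 88.1 and 75.1 at day 2. In dhs-1 (WBGene00000965, chromosome I, 5278803 to 5281519) they were 75.7, 75.9 and 76.1 against 73.9, 74.7 and 72.8 at day 1, and 70.2, 78.1 and 76.8 against 69.7, 78.2 and 57.7 at day 2. In dhs-6 and dhs-1 the foods lay apart by a small margin at day 1 and overlapped at day 2. For dhs-13, dhs-6 and dhs-1 the lowest library was bcat-1 day 2 replicate 3. Over the 31 tested members, the highest library was at most 1.5-fold above the lowest in 12, more than 3-fold above it in 6, and in between in 13. The 6 were dhs-26, dhs-16, dhs-25, dhs-23, stdh-2 and dhs-18.

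**Figure D1:**
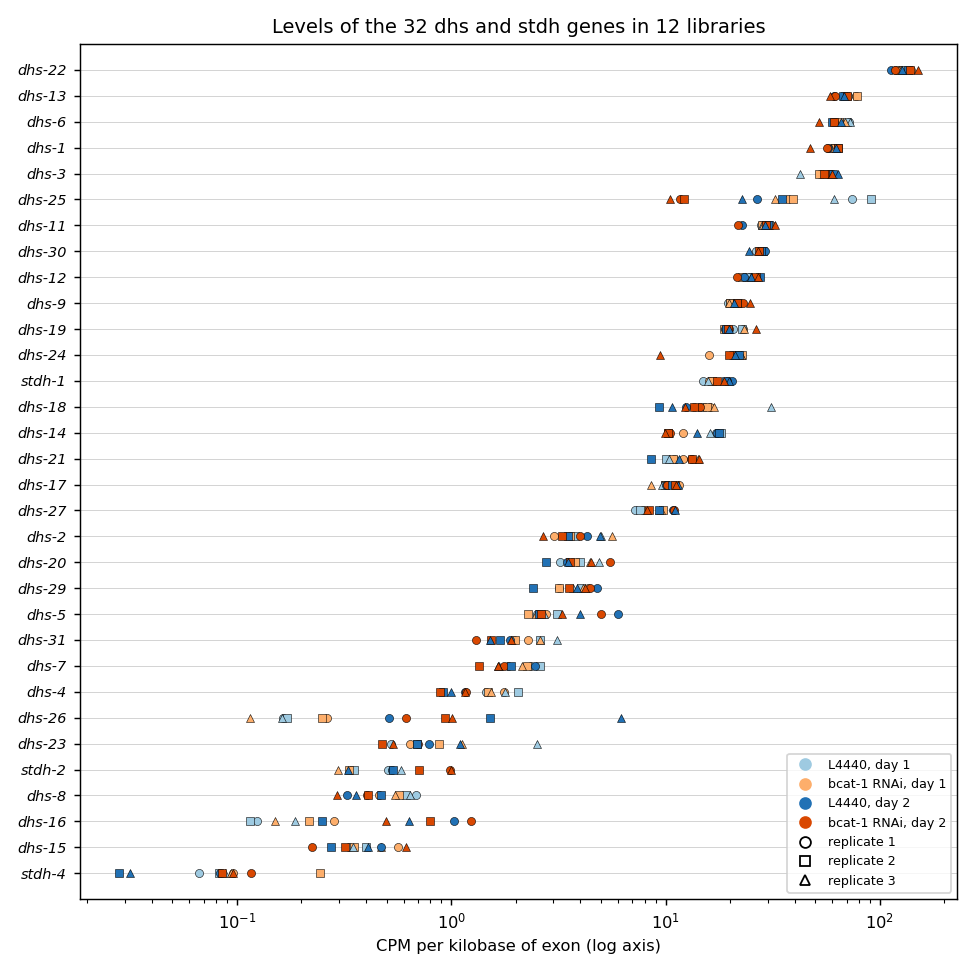
Level of each of the 32 members in each of the 12 libraries, in CPM per kilobase of exon on a log axis, with genes ordered by their mean. Colours mark the 4 groups and symbols the replicate; dhs-22 lies at the top with a mean of 129, stdh-4 at the bottom with 0.0926, and the points of dhs-25 fall apart by group.

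Of the chromosomes, V holds the most members. It carries 15 of the 32 members (46.9%) and 25.1% of the protein-coding genes of the table, and X carries 5 members. Few are direct neighbours. stdh-3 and stdh-1 are 495 bases apart with no coding gene between them, and stood at 3 and 7723 counts in all. dhs-14 and dhs-15 are 3160 bases apart with 1 coding gene between them, and had means of 13.7 and 0.398 CPM per kilobase. Exons of 13 members share bases with exons of another protein-coding gene, and the strand setting of the counting is not given in the sources used here, so reads in those bases cannot be assigned with certainty. Of the members called in a comparison, dhs-25, dhs-14 and stdh-2 are not among the 13 and dhs-26 is. Among the 13 are dhs-26 and dhs-16, which share 54 and 74 bases with a gene on the other strand. dhs-3, dhs-18 and dhs-21 share 49, 39 and 28 such bases. How reads that map to more than 1 gene were counted is not given either, and the likeness of the members' sequences was not examined.

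On bcat-1 RNAi, every library had less dhs-25 and dhs-14 transcript than every L4440 library of the same age, and both falls passed the test at day 2. Both genes were picked out with the day 1 results known, so their day 1 values are a description. dhs-25 (WBGene00000988, chromosome X, 1486532 to 1489326) had day 1 values of 72.9, 90.1 and 60.1 CPM on L4440 and of 36.8, 38.6 and 31.9 CPM on bcat-1 RNAi. Every L4440 library of day 1 was above every bcat-1 library of day 1. The level was 2.08-fold lower (log2 -1.06, SE 0.17), and edgeR's quasi-likelihood test gave an adjusted p = 0.173 over all genes, so it was not called at day 1. Among the 14567 genes tested its p was the 4th smallest at that age, and that of dhs-14 the 7th smallest.

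At day 2 dhs-25 had 26.5, 34.6 and 22.6 CPM on L4440 against 11.5, 12.1 and 10.4 CPM on bcat-1 RNAi. The groups lay apart again, with 22.6 CPM as the lowest L4440 and 12.1 CPM as the highest RNAi library. dhs-25 fell 2.46-fold (log2 -1.298, SE 0.18, edgeR adjusted p = 0.00679). The 3 bcat-1 libraries were closely alike (11.3 ± 0.866 CPM, SD, n = 3), and the library whose bcat-1 transcript goes against its label had the lowest dhs-25 value of all 12. Without it the change was -1.26 (adjusted p = 0.0257). The call ended without bcat-1 day 2 replicate 2 (adjusted p = 0.0515) and in a fit of only the day 2 groups (0.115).

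dhs-14 (WBGene00000977, chromosome V, 2763981 to 2765200) had smaller differences, close in size at both ages. Its day 1 values were 15.2, 15.98 and 14.2 CPM on L4440 and 10.7, 9.03 and 9.18 CPM on bcat-1 RNAi. These groups did not overlap, and the difference was not called (log2 -0.65, SE 0.12, edgeR adjusted p = 0.392). The day 2 values were 15.4, 15.7 and 12.3 CPM on L4440 and 9.31, 9.10 and 8.77 CPM on bcat-1 RNAi. All 6 bcat-1 RNAi libraries thus lay below all 6 L4440 libraries, whatever the age. The fall at day 2 was 1.60-fold (log2 -0.67, SE 0.12, edgeR adjusted p = 0.0432). This call sat close to the threshold: it held in 1 of the 12 fits without a single library (without L4440 day 2 replicate 3), and without the library that goes against its label the adjusted p was 0.0862 at a log2 change of -0.67. In a fit of only the day 2 groups it was 0.494.

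**Figure D2:**
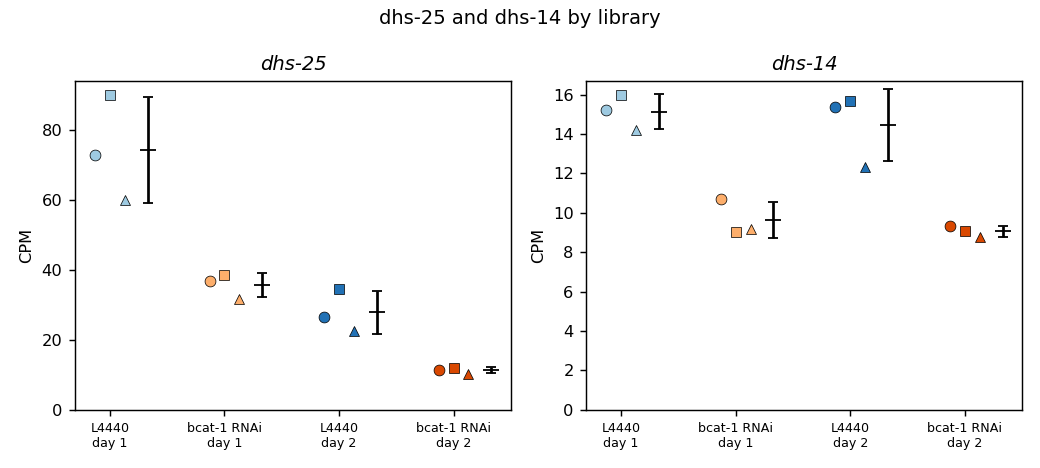
CPM of dhs-25 and dhs-14 in each library by group, from 0; symbols mark replicates 1 (circle), 2 (square) and 3 (triangle), and bars give the mean and SD of 3 libraries. dhs-25 is lower on bcat-1 RNAi and lower again at day 2, down to 10.4 CPM; dhs-14 lies between 8.77 and 10.7 CPM in all bcat-1 RNAi libraries and at 12.3 CPM or above on L4440.

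Averaged over both ages, the log2 value was -1.18 (SE 0.12) for dhs-25 and -0.66 (SE 0.09) for dhs-14. The average contains the day 1 values with which the genes were picked out, so it is a description too. The difference between the RNAi effects at day 2 and day 1 was -0.24 (SE 0.24) for dhs-25 and -0.02 (SE 0.17) for dhs-14, each far from the test's threshold (edgeR adjusted p = 1). The 9 intestine markers, none of them at 0, summed at day 1 to 1608 to 1775 CPM on L4440 and 1765 to 1948 CPM on bcat-1 RNAi, which overlapped. At day 2 they summed to 1634 to 1670 CPM on L4440 and 1694 to 2049 CPM on bcat-1 RNAi, which did not overlap. By the mean log2 deviation of the 9 genes, which weights them equally, the day 2 groups overlapped (-0.12 to 0.02 on L4440 and -0.10 to 0.01 on bcat-1 RNAi). Of the 9 genes, 6 had positive and 3 negative RNAi values at day 2 (median log2 0.05), and 0 were called. The values ran from -0.41 (vha-6, SE 0.12) to 0.66 (elo-2, SE 0.15). The part of these markers in the result was not tested.

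Few members of the family were called under RNAi. At day 1 edgeR called 0 of 31 members, as it called 0% of all genes. 2 members, dhs-25 and dhs-14, had an unadjusted p under 0.05, which 2.04% of all genes had. DESeq2 called the same 2, and 16 of the 14567 genes in all. In 6 members every bcat-1 library lay below every L4440 library and in 0 above. Over all genes 4.65% lay below and 5.85% above. dhs-25 and dhs-14 were picked out on these day 1 values and are in each count. The counts are therefore a description and are not set against these shares. Besides dhs-25 and dhs-14 the 6 were dhs-1, dhs-6, dhs-8 and stdh-2, with log2 values of -0.04, -0.13, -0.30 and -0.55. The median over the members was -0.02, against 0.01 over all genes.

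At day 2 edgeR called 2 of 31 members, dhs-25 and dhs-14, both lower, where 0.419% of all genes were called (0.213% lower). Both were picked out on day 1 values, and the day 1 libraries also enter the spread of the shared fit. The day 2 counts that hold them are therefore a description. A fit of only the day 2 groups called 0 members and 0 of 14161 genes. Without the library that goes against its label edgeR called 1 member, dhs-25, and 50 of 14881 genes in all. Beside dhs-25 and dhs-14, in the main fit dhs-20, dhs-26 and stdh-2 had an unadjusted p under 0.05, 5 of 31 in all, which 7.21% of all genes had. The groups lay apart in 3 members downward (dhs-25, dhs-14 and dhs-3) and in 2 upward (stdh-2 and dhs-20), against 4.24% and 6.52% of all genes. For dhs-20 the day 2 values were 5.08, 4.05 and 5.09 CPM on L4440 against 8.00, 5.21 and 6.53 CPM on the RNAi food (log2 0.47, SE 0.20, edgeR adjusted p = 0.649). The median over the members was -0.04, against -0.02 over all genes. For the average over both ages 0.343% of all genes were called (0.178% lower), and the members called were the same 2. Both were picked out on day 1 values that enter this average, so their count is not set against that share. An unadjusted p under 0.05 was found in 3 members and in 6.3% of all genes. The third of the 3 was dhs-21, which encodes a reductase of dicarbonyls and L-xylulose. At day 1 dhs-21 (WBGene00000984, chromosome V, 12731767 to 12733645) had 9.89, 9.11 and 9.42 CPM on L4440 against 10.9, 9.85 and 12.8 CPM on bcat-1 RNAi. The day 2 values were 12.0, 7.78 and 10.51 CPM against 11.9, 12.1 and 12.95 CPM, so that the groups overlapped at each age. Its average change was 0.26 (SE 0.11, edgeR adjusted p = 0.75).

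**Figure D3:**
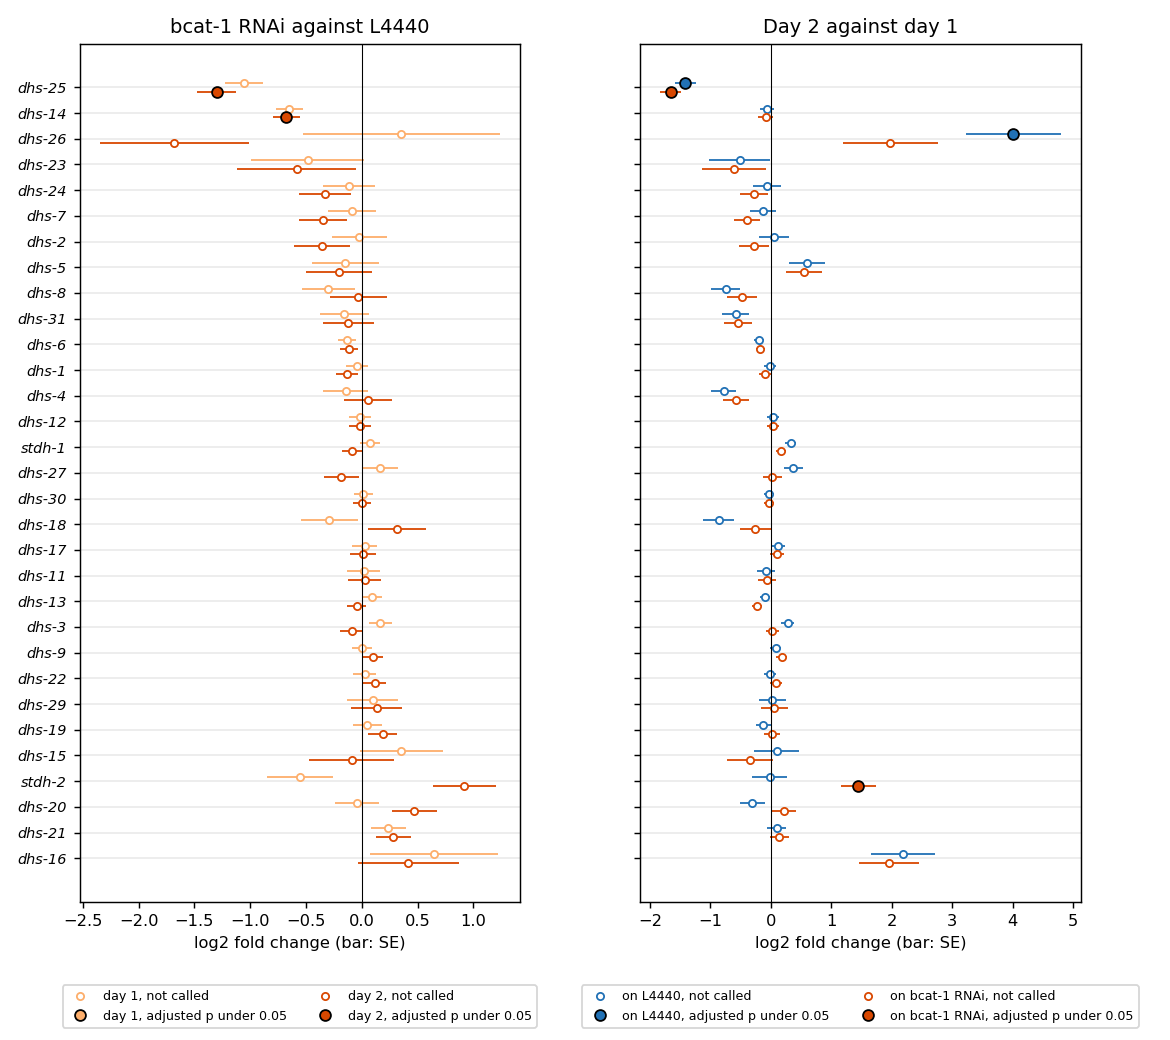
Log2 fold changes with SE for the 31 tested members, bcat-1 RNAi against L4440 at each age (left) and day 2 against day 1 on each food (right), with filled points where the edgeR adjusted p is under 0.05. The filled points are dhs-25 and dhs-14 on the left, both at day 2, and dhs-25, dhs-26 and stdh-2 on the right.

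With age dhs-25 fell on both foods, dhs-26 rose on L4440 and stdh-2 rose on bcat-1 RNAi. From day 1 to day 2 dhs-25 fell 2.67-fold on L4440 (log2 -1.42, SE 0.17, edgeR adjusted p = 0.00211) and on bcat-1 RNAi 3.16-fold (log2 -1.66, SE 0.18, adjusted p = 4.26e-04). Both calls held in every alternative tried, and without the library that goes against its label the values were -1.44 and -1.62. The day 2 L4440 libraries (22.6 to 34.6 CPM) overlapped the day 1 bcat-1 RNAi libraries (31.9 to 38.6 CPM). dhs-14 had age values of -0.06 on L4440 and -0.09 on bcat-1 RNAi (SE 0.12 for each).

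dhs-26 (WBGene00000989, chromosome X, 3360722 to 3362493) rose with age on L4440 from a very low level. Its counts at day 1 were 8, 9 and 6 on L4440 and 12, 10 and 4 on bcat-1 RNAi. At day 2 it had 27, 58 and 213 counts on L4440 and 29, 48 and 23 on bcat-1 RNAi. In CPM, the L4440 libraries went from 0.191, 0.199 and 0.188 to 0.599, 1.76 and 7.22, and the bcat-1 libraries from 0.306, 0.291 and 0.134 to 0.718, 1.09 and 1.17. Every day 2 library was above every day 1 library on both foods, with L4440 day 2 replicate 3 far above the rest. The fitted rise on L4440 was 4.01 on the log2 scale (SE 0.78, edgeR adjusted p = 0.0242), and without that 1 library it was 2.57 (adjusted p = 0.0441). dhs-26 passed the filter on low counts only through its day 2 libraries, where it was higher, which limits its age tests. With no filter the rise on L4440 was called too. The call ended without any 1 of the day 1 L4440 libraries (adjusted p 0.0864 to 0.117) and in a fit of only the L4440 groups (0.0685), and with 2 surrogate variables it was 0.0595. On bcat-1 RNAi the value was 1.97 (SE 0.78, adjusted p = 0.197), which passed without L4440 day 2 replicate 3 (0.0416). The RNAi value of dhs-26 at day 2, -1.68 (SE 0.67, adjusted p = 0.594), was -0.24 without that library. The dhs-26 exons share 54 bases with ZK816.1 on the other strand.

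Among the stdh genes, named for their likeness to steroid dehydrogenases, stdh-1 was well expressed and stdh-2 low. stdh-2 (WBGene00008678, chromosome V, 16224327 to 16225655) had day 1 values of 0.572, 0.398 and 0.659 CPM on L4440 and 0.382, 0.378 and 0.335 CPM on bcat-1 RNAi. Its day 2 values were 0.599, 0.605 and 0.373 CPM on L4440 and 1.11, 0.796 and 1.12 CPM on bcat-1 RNAi, from 10 to 45 counts per library. The bcat-1 libraries were below L4440 at day 1 and above it at day 2, without overlap. The rise with age on bcat-1 RNAi was 1.45 (SE 0.29, edgeR adjusted p = 0.0175), and the age value on L4440 was -0.02 (SE 0.29). The difference between the age effects, which equals that between the RNAi effects, was 1.47 (SE 0.41), with an unadjusted p of 0.00393 and an edgeR adjusted p = 1. For this difference edgeR called 0 of 31 members and 0% of all genes, and DESeq2 called 0 members. stdh-2 was the 1 member with an unadjusted p under 0.05, which 2.64% of all genes had. The members next in order of p were dhs-26 (-2.03, SE 1.11) and dhs-20 (0.51, SE 0.29). The age call of stdh-2 ended without any 1 of the day 1 bcat-1 libraries (adjusted p 0.0617 to 0.0798) or without bcat-1 day 2 replicate 1 (0.0602). The rise was 1.35 (0.0384) without bcat-1 day 2 replicate 3.

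stdh-1 (WBGene00007363, chromosome V, 13906492 to 13908037) was one of the steadiest members within groups, with a within-group SD of 0.06 on the log2 scale. Over the 12 libraries its range was 1.36-fold. It ran from 15.1 to 17.4 CPM in the 6 libraries of day 1 and from 17.7 to 20.6 CPM in the 6 of day 2, so that every day 2 library was above every day 1 library. The rise did not pass on either food. On L4440 it was 0.33 (SE 0.09, edgeR adjusted p = 0.0783) and on bcat-1 RNAi 0.17 (SE 0.09, adjusted p = 0.351). stdh-4 (WBGene00006435, chromosome V, 8549289 to 8551207) had 1 to 9 counts per library and was not tested.

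**Figure D4:**
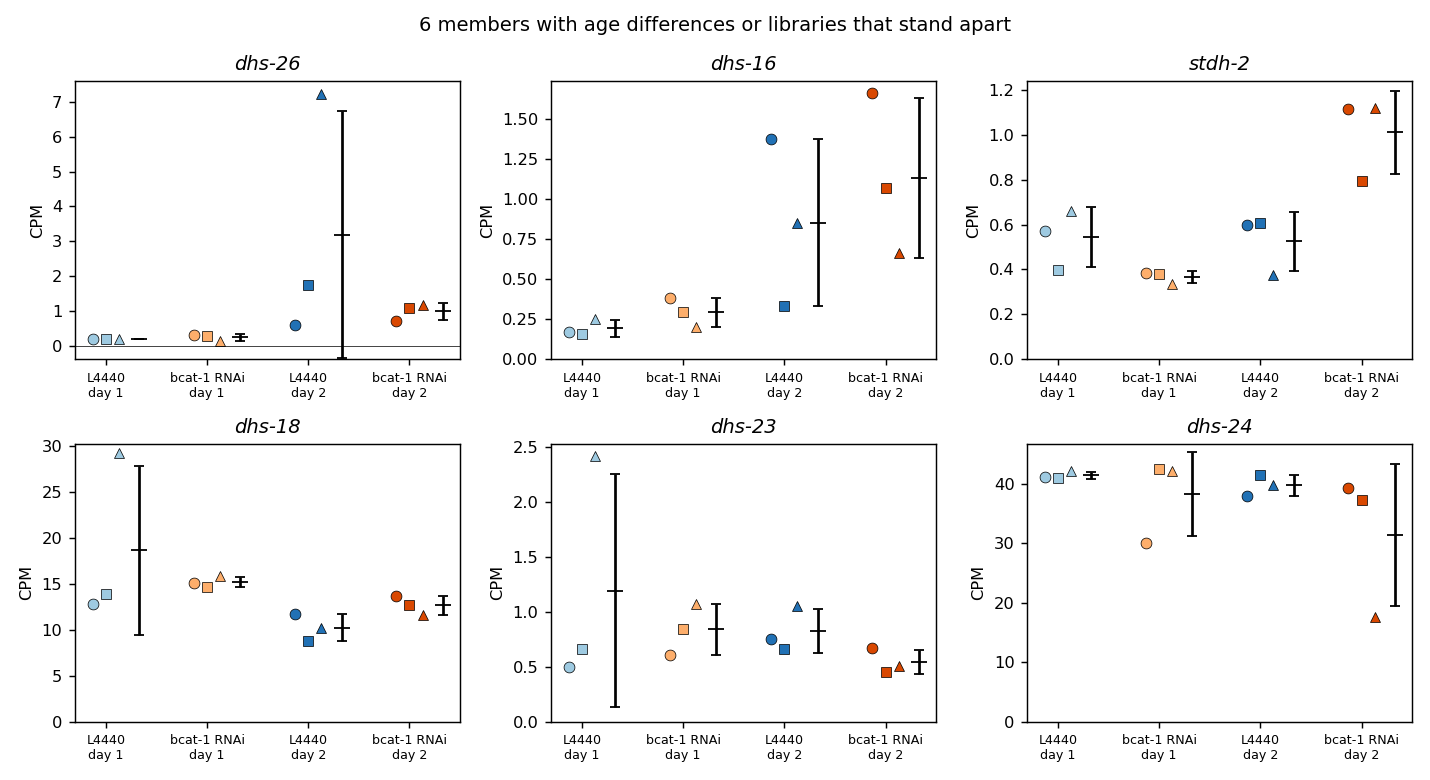
CPM by library, group mean and SD for 6 members with an age difference or with 1 library that stands apart; symbols mark replicates 1 (circle), 2 (square) and 3 (triangle). dhs-26 reaches 7.22 CPM and dhs-18 reaches 29.2 CPM in a single library, stdh-2 is highest in the bcat-1 RNAi libraries of day 2, and dhs-24 is lowest, at 17.7 CPM, in bcat-1 day 2 replicate 3.

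On L4440 edgeR called 2 of 31 members (dhs-25 lower, dhs-26 higher), where 2.3% of all genes were called (1.29% lower, 1.01% higher). An unadjusted p under 0.05 was found in 11 members and in 18.1% of all genes. The ages lay apart in 7 members downward and 5 upward, against 13.1% and 11.7% of all genes. On bcat-1 RNAi edgeR called 2 members (dhs-25 lower, stdh-2 higher), where 4.07% of all genes were called (2.06% lower, 2.01% higher). Without bcat-1 day 2 replicate 3 it called 3 members and 651 of 14881 genes in all, with dhs-16 as the third member (adjusted p = 0.0311). An unadjusted p under 0.05 was found in 7 members and in 18.7% of all genes, and the ages lay apart in 8 members downward and 5 upward (9.95% and 11.1% of all genes). The comparisons on the 2 foods share no library, and 9 of 31 members lay apart the same way on both, against 10% of all genes. These were dhs-25, dhs-4, dhs-6, dhs-8, dhs-18 and dhs-31 downward, and dhs-16, dhs-26 and stdh-1 upward. dhs-16 and dhs-26 passed the filter on low counts only through their day 2 libraries, where they were higher. The age counts above that hold either gene, calls included, are therefore a description. dhs-4 ran from 1.52 to 2.17 CPM in the day 1 libraries and from 0.932 to 1.24 CPM at day 2 (log2 -0.78, SE 0.21, edgeR adjusted p = 0.0738 on L4440, and -0.58, SE 0.21, adjusted p = 0.161 on bcat-1 RNAi). dhs-8 had age values of -0.75 and -0.48 (SE 0.24 and 0.25), dhs-31 of -0.58 and -0.55 (0.22 for each) and dhs-6 of -0.20 and -0.17 (0.08 for each), and none of the 3 passed on either food.

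dhs-16, of the dafachronic acid pathway, had higher values at day 2 on both foods, just short of the threshold. DHS-16 is a 3-hydroxysteroid dehydrogenase that acts between DAF-36 and DAF-9 in making dafachronic acid. dhs-16 (WBGene00000979, chromosome V, 5983745 to 5985509) had day 1 values of 0.167, 0.155 and 0.251 CPM on L4440 and 0.382, 0.291 and 0.201 CPM on bcat-1 RNAi, from 6 to 15 counts. Its day 2 values were 1.38, 0.333 and 0.848 CPM on L4440 and 1.66, 1.07 and 0.663 CPM on bcat-1 RNAi. All day 2 libraries were above the day 1 libraries of their food, and the day 2 libraries spread widely. The age values were 2.18 on L4440 (SE 0.53, edgeR adjusted p = 0.055) and 1.95 on bcat-1 RNAi (SE 0.50, adjusted p = 0.0523). dhs-16 too passed the filter on low counts only through its day 2 libraries, where it was higher, which limits its age tests. DESeq2 called both age values (0.012 and 0.019), and edgeR called both with no filter. With 2 surrogate variables the values were 1.39 and 1.25 and were not called. The dhs-16 exons share 74 bases with C10F3.7 on the other strand. Of the list of sterol and dafachronic acid genes 10 of 12 were tested, and 0 were called on either RNAi comparison or by age on L4440. On bcat-1 RNAi 1 fell with age, let-767 (log2 -0.36, SE 0.09, edgeR adjusted p = 0.0496), and its value was -0.46 (0.0146) without bcat-1 day 2 replicate 3. The median of that list was 0.01 and 0.05 under RNAi at day 1 and day 2, and -0.00 and 0.12 by age on L4440 and bcat-1 RNAi.

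The moulting genes differed between libraries of 1 group. These 10 genes, which take part in renewing the cuticle, summed to 303 CPM in L4440 day 2 replicate 1, 309 CPM in bcat-1 day 2 replicate 1 and 213 CPM in L4440 day 2 replicate 3, and to 69.3 to 135 CPM in the other 9 libraries. The summed epidermis markers, which share bli-1 with the moulting genes, were highest in the same 3 libraries, at 355 to 425 CPM. By age on L4440, dpy-7, rol-6 and sqt-3 of that list had log2 values of 2.69, 2.85 and 2.57, and bli-1 of -0.84. Those of elt-3, lin-26, nhr-23 and nhr-25 were 0.06, 0.13, -0.00 and 0.15, and none of these epidermis markers was called. dhs-5 stood at 7.96, 6.66 and 5.32 CPM in these 3 libraries and at 3.02 to 4.39 CPM in the other 9. dhs-27 (11.6, 11.7 and 11.8 CPM) and stdh-1 (20.6, 19.6 and 19.9 CPM) also had their highest values there. Elsewhere they reached at most 10.4 and 19.4 CPM. dhs-16 had its highest values in bcat-1 day 2 replicate 1 and L4440 day 2 replicate 1, but bcat-1 day 2 replicate 2 came next at 1.07 CPM with moulting genes at 111 CPM. dhs-26 was at 0.599 and 0.718 CPM in both libraries with the most moulting transcripts. The part of these markers in the age values of dhs-5, dhs-16, dhs-26, dhs-27 and stdh-1 was not tested. The age values of dhs-5 were 0.60 on L4440 (SE 0.29) and 0.54 on bcat-1 RNAi (SE 0.30), and neither passed.

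**Figure D5:**
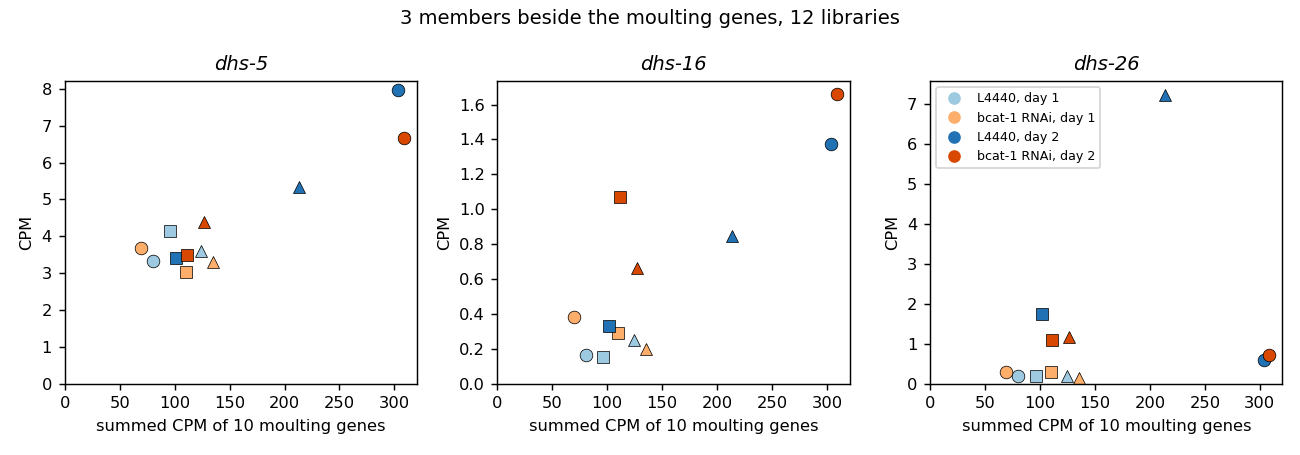
CPM of dhs-5, dhs-16 and dhs-26 against the summed CPM of 10 moulting genes in the 12 libraries, with colours for the groups and symbols for replicates 1 (circle), 2 (square) and 3 (triangle). The libraries with 303 and 309 CPM of moulting genes hold the highest dhs-5 (7.96 and 6.66 CPM) and dhs-16 values, and the highest dhs-26 value (7.22 CPM) lies at 213 CPM.

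In other members a single library stood apart from its group. dhs-18 stood at 29.2 CPM in L4440 day 1 replicate 3, against 12.8 and 13.9 CPM in replicates 1 and 2 and 8.78 to 15.8 CPM in the other 9 libraries. dhs-23 was at 2.42 CPM in the same library and between 0.455 and 1.07 CPM elsewhere. The age value of dhs-18 on L4440, -0.86 (SE 0.26, edgeR adjusted p = 0.0996), was -0.39 without that library. dhs-24 stood at 17.7 CPM in bcat-1 day 2 replicate 3, the library with 41.5% ribosomal RNA, at 30.1 CPM in bcat-1 day 1 replicate 1 and at 37.4 to 42.6 CPM in the other 10. Its RNAi values were -0.12 at day 1 and -0.33 at day 2 (SE 0.23 for each), and neither was called.

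The other 11 tested members, dhs-2, dhs-7, dhs-9, dhs-11, dhs-12, dhs-15, dhs-17, dhs-19, dhs-27, dhs-29 and dhs-30, were called in none of the 6 comparisons. Their log2 values under RNAi ran from -0.09 (dhs-7) to 0.35 (dhs-15) at day 1 and from -0.36 (dhs-2) to 0.19 (dhs-19) at day 2. Their age values ran from -0.13 (dhs-7) to 0.37 (dhs-27) on L4440 and from -0.40 (dhs-7) to 0.18 (dhs-9) on bcat-1 RNAi. dhs-30 varied least of all 31, from 25.9 to 30.8 CPM over the 12 libraries, and dhs-12 ran from 46.9 to 60.0 CPM.

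dhs-3 encodes a protein of intestinal lipid droplets and is widely used as their marker. dhs-3 (WBGene00000967, chromosome I, 8212362 to 8218324) had day 1 values of 54.4, 58.2 and 43.7 CPM on L4440 and 60.5, 53.4 and 61.3 CPM on bcat-1 RNAi. Its day 2 values were 61.8, 62.1 and 65.6 CPM on L4440 and 59.8, 56.8 and 61.4 CPM on bcat-1 RNAi. The foods overlapped at day 1 and lay just apart at day 2 (61.8 against 61.4 CPM), with log2 values of 0.16 (SE 0.10) and -0.09 (SE 0.10), neither called. Of the 12 lipid droplet and triglyceride genes, which include perilipin and the triglyceride lipase gene atgl-1, 0 were called in any of the 6 comparisons. Their median log2 values were 0.00 and -0.10 under RNAi at day 1 and day 2, and 0.04 and -0.00 by age on L4440 and bcat-1 RNAi.

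Of the relatives outside the dhs and stdh names, none was called under RNAi and 3 fell with age. Of 15 named short-chain dehydrogenase relatives 10 were tested, and 0 were called under RNAi at day 1, at day 2 or on average, with medians of 0.00, 0.04 and 0.04. ard-1, of the isoleucine pathway, had RNAi values of 0.00 (SE 0.07) at day 1 and -0.21 (SE 0.07, edgeR adjusted p = 0.432) at day 2. With age, decr-1.1, a dienoyl-CoA reductase, fell on L4440 (log2 -0.43, SE 0.08, adjusted p = 0.0179) and on bcat-1 RNAi (-0.39, SE 0.08, adjusted p = 0.0185). On bcat-1 RNAi ard-1 (-0.44, SE 0.07, adjusted p = 0.00609) and let-767, a ketoreductase of fatty acid elongation, fell as well. let-767 is the same gene as in the sterol list. All 3 calls on bcat-1 RNAi held without bcat-1 day 2 replicate 3, with adjusted p values of 0.0112 to 0.0146. The median of that list by age was -0.08 on L4440 and -0.00 on bcat-1 RNAi. Alcohol and aldehyde dehydrogenases of other folds had negative age values in 13 of 13 tested genes on L4440 and in 12 of 13 on bcat-1 RNAi, with medians of -0.15 and -0.25 against -0.00 and -0.01 over all genes. 2 of these fell past the test on L4440 (alh-8 and alh-10) and 4 on bcat-1 RNAi (alh-6, alh-8, alh-9 and alh-10). Of all genes 2.3% and 4.07% were called by age on L4440 and bcat-1 RNAi (1.29% and 2.06% lower). The summed level of that list was lowest, at 1179 CPM, in bcat-1 day 2 replicate 3, and without that library the 4 were called again with alh-11 as the 5th (median -0.23). None was called under RNAi, where 8 and 10 of 13 values were negative at day 1 and day 2 (medians -0.01 and -0.13). The dhs and stdh members had 18 of 31 negative age values on L4440 and 16 of 31 on bcat-1 RNAi, with medians of -0.02 and -0.04.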

How the data were processed

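The authors deposited whole-number read counts per gene for 12 libraries, which are the values used. Per the submitters' processing notes the tools included bcl2fastq 1.8.4, STAR 2.4.1d and featureCounts 1.4.6-p4, with build WBcel235. Neither the annotation release nor the strand setting nor the handling of multimapping reads is given in the sources used here. A deposited RPKM table was not used. Libraries were prepared with TruSeq RNA v2, per the labels' protocols. Symbols came from a gene name table (43693 of 46748 genes matched), and positions and exon lengths from Ensembl annotation 115 of WBcel235.

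The tests used edgeR 4.0.16 under R 4.3.3. filterByExpr by group left 14567 genes, sizes were scaled by TMM, and 1 quasi-likelihood model with 4 group means was fitted (8 residual degrees of freedom). SE is the log2 fold change divided by the root of its F value. The p-values are two-sided, with Benjamini-Hochberg adjustment across every tested gene and a threshold of 0.05. A group lies apart from another where its 3 libraries do not overlap with the other's. Groups followed the source labels. Replicate numbers name libraries and pair none. Members, lists and tests were chosen with earlier results of these data known.

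Members described were those past the test in a comparison, or else the 3 with the smallest p, dhs-25 and dhs-14, the 4 with the highest level per length, dhs-3, dhs-16, dhs-21 and the stdh genes. dhs-5, dhs-18, dhs-20, dhs-23 and dhs-24 were described after their values were seen. Alternatives were RLE factors, library size only, DESeq2 1.42.0, no filter, only the compared groups, no ribosomal RNA genes, no libraries with over 5% ribosomal RNA, 2 surrogate variables (sva 3.50.0) and each library left out. The edgeR step was tested on simulated data.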

Additional observations from a re-analysis of the deposited data

Results flagged for a closer look

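stdh-2 differed between the ages in the direction of its RNAi values. All 3 bcat-1 libraries lay below all 3 L4440 libraries at day 1 (log2 -0.55, SE 0.30) and above them at day 2 (0.92, SE 0.28). The difference between these effects was 1.47 (SE 0.41), with an unadjusted p of 0.00393 and an edgeR adjusted p = 1 over all genes, so it did not pass. It stayed between 1.22 and 1.66 over the 19 alternatives. The gene had 10 to 45 counts per library.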

How the results depend on the processing

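The number of members called moved as follows, with the number of all genes called in brackets. The latter is out of 14567 genes, or out of 25099 with no filter. Where groups, libraries or ribosomal RNA genes were left out it is out of 13784 to 14902. For RNAi at day 1 it was 0 (0), and 1 with no filter (7), 2 with DESeq2 (16), 1 with 2 surrogate variables (4) and 0 to 0 without a single library (0 to 1). For RNAi at day 2 it was 2 (61), and 0 with library size only (19), 1 with no filter (87) and 0 with only the compared groups (0). It was 1 without both high-rRNA libraries (30) and 0 to 2 without a single library (15 to 81). For the average it was 2 (50), and 1 with library size only (18) and 2 to 2 without a single library (31 to 71). For age on L4440 it was 2 (335), and 4 with no filter (867), 5 with DESeq2 (999) and 1 with only the compared groups (294). It was 3 with 2 surrogate variables (542), namely dhs-18, dhs-20 and dhs-25, and 1 to 3 without a single library (79 to 1017). For age on bcat-1 RNAi it was 2 (593). With dhs-16 added it was 3 with RLE factors (600), no filter (690) or DESeq2 (1021). It was 1 with library size only (244), 1 with only the compared groups (222) and 1 with 2 surrogate variables (853). Without a single library it was 1 to 3 (229 to 657). For the difference between RNAi effects it was 0 throughout, with 1 member at an unadjusted p under 0.05. The number of all genes called there was 0, and 1 with no filter, 1 with 2 surrogate variables and 13 with DESeq2. Of 32 log2 fold changes tracked, 0 reversed under any alternative, 583 alternative values kept their side of the threshold, 31 lost a call and 20 gained one. The 32 were those called, those with an unadjusted p under 0.05 and, where none was called, the 3 smallest p. The RNAi values of dhs-25 and dhs-14 were added. They were thus picked mostly for small p in these data, so the lack of reversals is not support. Library size only moved the median of all genes at day 2 under RNAi from -0.02 to -0.14. With it the day 2 RNAi values of dhs-25 and dhs-14 had an edgeR adjusted p of 0.061 and 0.445, the average value of dhs-14 one of 0.165 and the age value of stdh-2 on bcat-1 RNAi one of 0.0764. The day 2 call of dhs-14 was also lost with no filter (0.0546) and without both high-rRNA libraries (0.0748), and the age call of stdh-2 with only the compared groups (0.0519) and 2 surrogate variables (0.0565). The cause of these moves was not tested. No paired analysis was possible because the labels carry no replicate numbers; those used here follow the order of the samples and pair none. Members under about 1 CPM rest on few counts, which limits dhs-16, dhs-26 and stdh-2.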
